A study of Mus musculus with 6 samples.

Results

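The 10 genes *Nlrp3*, *Aim2*, *Zbp1*, *Pycard*, *Casp1*, *Casp4*, *Il1b*, *Il18*, *Gsdmd* and *Mlkl*, which act in inflammasome activation, pyroptosis and necroptosis, were taken by symbol from the 24346 genes listed for the hearts of the mice, and all 10 were found. The hearts came from C57BL/6J male mice of 3 diet groups, and RNA sequencing gave 2 libraries in each group. The C group ate chow. The N group ate a NASH diet, in which cocoa butter, cholesterol and sucrose were combined with bile acid to cause steatohepatitis without any genetic change. The NP group ate the same NASH diet to which pemafibrate, a selective PPARα modulator, was added at 0.1 mg/kg. The sample labels give a feeding period of 3 weeks, whereas the methods of the study give a longer one, and the age of the mice is not given in the sources used here. The tissue in the labels is the heart, but their extraction protocol names the liver. They do not say whether the libraries of a group came from separate animals, so that *P* values measure the spread between libraries, which may be technical. C, N and NP stand for the libraries of these groups. The N and C groups were compared for the effect of the diet, and the NP and N groups for that of pemafibrate given with the diet.

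Inflammasomes are complexes that form in the cytosol when a sensor protein detects microbial products or cell damage. The sensor recruits the adaptor ASC and caspase-1, which matures IL-1β and IL-18 and cleaves gasdermin D, whose fragments open pores in the plasma membrane and cause the lytic death called pyroptosis. Necroptosis is another lytic death, in which RIPK3 phosphorylates MLKL, and in the heart both are studied in resident and infiltrating macrophages and in the muscle cells themselves.

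The markers of heart muscle were present in all libraries, with 3840 to 6860 FPKM of *Myh6* and 7470 to 9820 of *Tnnt2*. The most abundant, *Myl2*, had 24100 and 26400 FPKM in C, 11900 and 17000 in N and 12100 and 18400 in NP, and the 7 markers summed to 58900 and 63100 FPKM in C, 44200 and 48000 in N and 46500 and 55000 in NP. FPKM is a level scaled by transcript length and by the mapped fragments of the library. Some libraries stood apart from the others. *Alb*, a hepatocyte gene, had 10.8 and 211 FPKM in C and 0.555 to 2.04 FPKM in the N and NP libraries. The 6 hepatocyte markers together had 41.6 and 557 FPKM in C, most of it in C replicate 2, against at most 7.57 FPKM elsewhere. The 4 atrial muscle markers summed to 307 and 171 FPKM in C, 3650 and 5120 in N and 3700 and 6120 in NP. Limma called all 4 higher in N than in C, against 1.48% of all genes tested. It called 3 of the 4 higher in NP than in C, where 0.0387% of all genes tested were called. *Nppa*, the most abundant of them, had 303 and 158 FPKM in C, 1990 and 2650 in N and 2080 and 3260 in NP. *Sln*, an atrial gene, was listed at 0 and 0.450 FPKM in C and at 250 to 518 FPKM in the others. Their part in the differences from the C group was not tested.

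Low FPKM of a gene are multiples of what 1 read adds, and the depth of each library was estimated from these steps. The estimates were 26060000 and 21520000 reads in C, 8720000 and 8700000 in N and 8160000 and 8460000 in NP. The C libraries thus had 2.47 to 3.19 times the depth of the N and NP libraries, and depth and diet cannot be told apart in comparisons with the C group. The N and NP libraries were of similar depth. In the NP libraries *Nlrp3*, *Il1b* and *Il18* had at most 6 estimated reads, as the plot of estimated reads shows. Values of 3 reads or fewer were taken as at the floor.

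**Figure D1:**
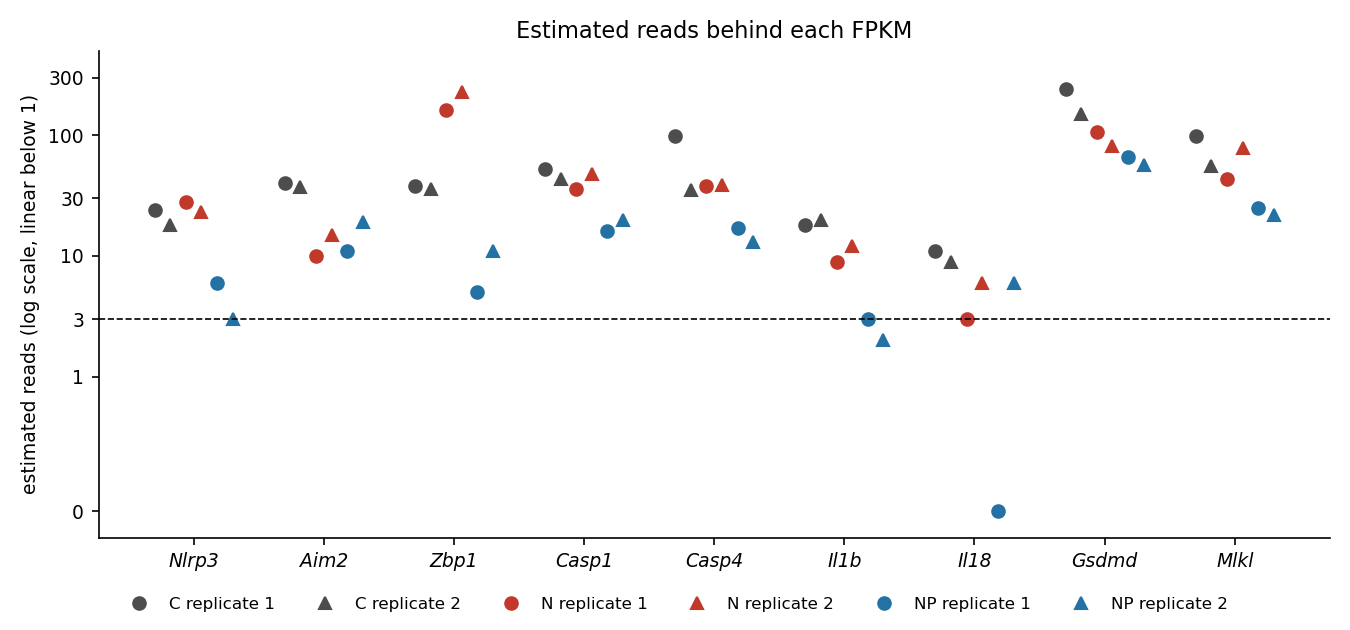
Estimated reads (vertical axis, log scale, linear below 1) behind the FPKM of 9 genes in the 6 libraries. Colours are groups, circles and triangles are replicates 1 and 2, and the dashed line marks 3 reads; *Nlrp3*, *Il1b* and *Il18* reach it in N or NP libraries, while *Gsdmd* had 57 reads or more in every library. *Pycard* is left out because the transcript length behind its FPKM is uncertain.

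Differences are given on log2(FPKM + 1), which understates the change of low genes, with the standard error (SE) and a Benjamini-Hochberg adjusted *P* value of limma's test over the 12923 genes with a mean of at least 0.5 FPKM. Of the 10 genes, 9 passed this filter and *Nlrp3* lay under it. *Il1b* passed it only by its level in N, which bears on the counts and medians over the 9 genes. *Zbp1* was called higher in N than in C at an adjusted *P* value under 0.05, which is 1 of 9 genes, whereas 1.48% of all genes tested were called higher. It was also called lower in NP than in N, again 1 of 9 genes, against 1.39% of all genes tested. Both comparisons share the N libraries, so that the values of each are given side by side. Before adjustment, 3 of the 9 genes had a *P* value under 0.05 in the former comparison and 5 in the latter, against 1938 and 1039 of the 12923 genes tested. Over the 9 genes, the median difference was 0.35 for N versus C and -0.70 for NP versus N, compared with -0.03 and 0.03 over all genes tested. The number of all genes called depended on single libraries. With all libraries 191 genes were called higher and 9 lower in the N group, compared with 88 higher and 95 lower without C replicate 1. The higher calls were 41 without C replicate 2, 116 without N replicate 1 and 77 without N replicate 2. In the NP group 179 genes were called lower, compared with 65 to 106 when any 1 of the 6 libraries was omitted. Pairs of differences and *P* values are given for N versus C first and for NP versus N second.

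Without regard to the test, both N libraries lay above both C and both NP libraries for 6 of the 10 genes, namely *Nlrp3*, *Zbp1*, *Casp1*, *Casp4*, *Il1b* and *Mlkl*. They are 5 of the 9 genes that passed the filter, and 10.3% of all genes tested had this pattern. Of these 5, *Il1b* passed the filter only by its level in N, and it is part of each count in this paragraph. The count over the 10 genes was 6 or 7 when any 1 library was left out. Leaving out a library cannot lower such a count, so that this does not check the pattern. Taken separately, both N libraries were above both C libraries for 5 of the 9 genes (22.5% of all genes tested), and both NP libraries were below both N libraries for 6 of the 9 genes, which include *Gsdmd* (14.7% of all genes tested).

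**Figure D2:**
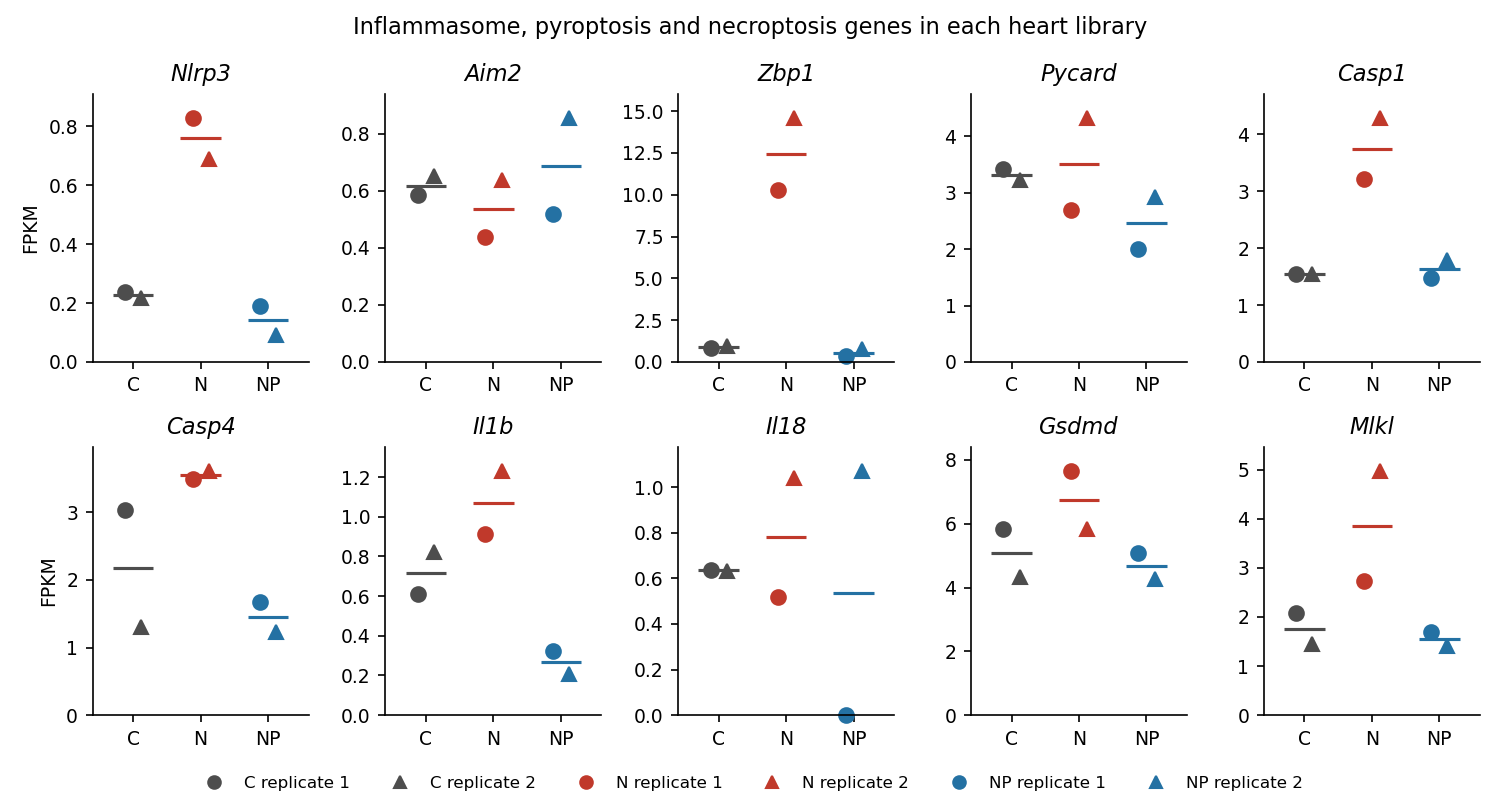
FPKM (vertical axes, each from 0) of the 10 genes in the C, N and NP groups. Circles and triangles are replicates 1 and 2 and horizontal lines are group means of 2 libraries; the N libraries of *Zbp1*, at 10.3 and 14.6 FPKM, stand apart from the other 4, all under 1 FPKM, whereas the groups overlap for *Aim2* and *Il18*.

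Among the sensors, *Nlrp3* encodes the inflammasome sensor that responds to potassium efflux, crystals and extracellular ATP. Its FPKM was 0.238 and 0.216 in C, 0.829 and 0.690 in N and 0.190 and 0.0922 in NP. The N libraries were the highest and the NP libraries the lowest, with no overlap between the 3 groups. These values rest on about 24, 18, 28, 23, 6 and 3 reads, so that the last is at the floor. In the fit without the filter, *Nlrp3* differed by 0.52 (SE 0.07) for N versus C (limma adjusted *P* = 0.0647) and by -0.63 (SE 0.07) for NP versus N (limma adjusted *P* = 0.0464). With the filter it was not tested.

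*Aim2*, the sensor of double-stranded DNA in the cytosol, had 0.584 and 0.650 FPKM in C, 0.437 and 0.638 in N and 0.519 and 0.855 in NP. The 3 groups overlapped, and the highest library was of the NP group. The differences were -0.08 and 0.13 with an SE of 0.17 (limma adjusted *P* = 0.882 and 0.977), within the replicate error, and their sign changed when N replicate 1 (0.02) or NP replicate 2 (-0.01) was left out. About 10 to 19 reads stood behind the N and NP values. *Cadm3* overlaps *Aim2* on chromosome 1 and had 0.763 to 1.16 FPKM, so that reads of either gene may be counted for the other.

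*Zbp1* encodes a sensor of Z-form nucleic acids that engages RIPK3 and can lead to both necroptosis and inflammasome activation, and it is induced by interferons. RefSeq places it at 173206612 to 173218959 on chromosome 2 (GRCm38.p6, the assembly of mm10). *Zbp1* had 0.823 and 0.940 FPKM in C, 10.3 and 14.6 in N and 0.340 and 0.760 in NP. The N libraries were far above the rest and the NP libraries were below the C libraries. The ratio of the group means was 14.1 for N versus C, and the N mean was 22.7 times the NP mean. The latter ratio depends on which NP library is used, as these had 0.340 and 0.760 FPKM. The estimated reads were 38 and 36 in C, 161 and 227 in N and 5 and 11 in NP, and the count was thus higher in the N libraries although they were less deep than the C libraries. The difference for N versus C was 2.82 (SE 0.21, limma adjusted *P* = 0.00348) and ranked 48 of 12923 by size. For NP versus N it was -3.11 (SE 0.21, limma adjusted *P* = 0.00253), which ranked 35 from the bottom. Without C replicate 2 the former was 2.87, with an adjusted *P* value of 0.0519 (3.97e-04 to 0.0519 over the 16 alternative settings), whereas the latter was called under all 16. *Zbp1* made up 4.37% and 6.22% of the summed FPKM of the 10 genes in the C libraries, 31.5% and 35.4% in N and 2.55% and 5.20% in NP.

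*Pycard* encodes ASC, the adaptor between sensors and caspase-1. Its FPKM was 3.42 and 3.22 in C, 2.70 and 4.33 in N and 2.01 and 2.92 in NP. The C libraries lay between the N libraries, and the NP libraries were below the C libraries. The difference for N versus C was 0.04 (SE 0.22, limma adjusted *P* = 0.955), within the replicate error, and it was -0.22 without N replicate 2. For NP versus N it was -0.37 (SE 0.22, limma adjusted *P* = 0.847), and -0.11 without N replicate 2 and -0.64 without N replicate 1.

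The caspase genes *Casp1* and *Casp4* are neighbours on chromosome 9, 1567 bases apart. *Casp1*, the protease of the canonical inflammasome, had 1.54 and 1.55 FPKM in C, 3.21 and 4.29 in N and 1.48 and 1.80 in NP. The N libraries were above all others, while the C and NP libraries overlapped. Differences of 0.89 (SE 0.16) for N versus C and of -0.84 (SE 0.16) for NP versus N did not pass the threshold (limma adjusted *P* = 0.0713 and 0.102, unadjusted *P* = 0.00141 and 0.00189). When the FPKM were scaled to the same total, the former passed (limma adjusted *P* = 0.0327, and 0.0175 to 0.400 over the 16 alternative settings), and other settings in the closing section called it in 1 or both comparisons. *Casp4* encodes caspase-11, which binds lipopolysaccharide in the non-canonical inflammasome. It had 3.04 and 1.30 FPKM in C, 3.49 and 3.61 in N and 1.67 and 1.23 in NP. The N libraries were close to each other and the highest, but C replicate 1 was nearer to them than to C replicate 2. The differences were 0.58 and -0.90 with an SE of 0.27 (limma adjusted *P* = 0.398 and 0.378), and the former was 0.98 without C replicate 1 and 0.17 without C replicate 2.

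The sequence upstream of the start sites was also examined. RefSeq promoters (GRCm38.p6) were found for 8 of the 10 genes, in 10 windows, but not for *Zbp1* or *Gsdmd*, and the 250 bases before the start were searched on both strands. The motifs were the core of the interferon-stimulated response element (GAAANNGAAA) and a form of the κB site (GGGNNNTTCC), which are held, in this order, by 2.98% and 4.65% of 32851 promoter windows. Of the 8 genes, 1 had any match, *Casp4*, with the κB form at positions -93 to -84 on the forward strand and at -39 to -30 and -14 to -5 on the reverse strand, none of them overlapping. Of the genes whose N libraries were the highest, the windows of *Casp1* (chr9:5298267-5298516, forward strand), *Casp4* (chr9:5308599-5308848, forward strand) and *Nlrp3* (chr11:59541319-59541568, forward strand), each ending at the first base before the annotated gene, are shown 5′ to 3′ with the matches in capitals.
Casp1: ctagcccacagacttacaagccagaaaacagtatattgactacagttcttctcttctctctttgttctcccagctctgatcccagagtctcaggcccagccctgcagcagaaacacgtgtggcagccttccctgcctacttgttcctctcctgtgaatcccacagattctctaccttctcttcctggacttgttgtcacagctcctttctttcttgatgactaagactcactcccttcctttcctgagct
Casp4: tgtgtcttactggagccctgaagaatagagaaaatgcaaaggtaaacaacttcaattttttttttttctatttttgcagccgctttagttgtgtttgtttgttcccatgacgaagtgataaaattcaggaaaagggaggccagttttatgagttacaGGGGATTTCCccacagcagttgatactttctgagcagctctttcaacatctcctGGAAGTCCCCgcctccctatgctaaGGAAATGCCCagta
Nlrp3: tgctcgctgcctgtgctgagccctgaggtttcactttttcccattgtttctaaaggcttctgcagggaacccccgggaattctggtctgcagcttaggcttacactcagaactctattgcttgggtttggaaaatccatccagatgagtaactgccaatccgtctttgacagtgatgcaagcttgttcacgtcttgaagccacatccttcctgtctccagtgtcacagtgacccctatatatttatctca
The absence of a match says only that these letters are not in the window, and a match is a description of the sequence.

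Both cytokine genes were near the floor in the NP libraries, and *Il18* also in the N libraries. In C, *Il1b* had 18 and 20 estimated reads and *Il18* 11 and 9, and in N *Il1b* had 9 and 12. *Il1b* encodes IL-1β, whose precursor is matured by caspase-1. Its FPKM was 0.610 and 0.823 in C, 0.912 and 1.23 in N and 0.325 and 0.209 in NP, and 3 and 2 reads stood behind the NP values. The groups did not overlap, with the N libraries the highest and the NP libraries the lowest. *Il1b* differed by 0.27 (SE 0.16, limma adjusted *P* = 0.495) for N versus C, by -0.70 (SE 0.16, limma adjusted *P* = 0.178) for NP versus N and by -0.44 (SE 0.16, limma adjusted *P* = 0.583) for NP versus C. With a pseudocount of 0.1 these were 0.52, -1.68 and -1.16, and the first was 0.16 without N replicate 2. An antisense gene, *Il1bos*, overlaps its start and was listed at 0 in all 6 libraries. *Il18* encodes the other cytokine matured by caspase-1. It had 0.637 and 0.632 FPKM in C, 0.519 and 1.04 in N and 0 and 1.07 in NP, with 0 to 6 estimated reads in the N and NP libraries. NP replicate 1 was the lowest and NP replicate 2 the highest of the 6 libraries, and no difference was detectable at this depth (SE 0.36, limma adjusted *P* = 0.925 and 0.977). *Bco2*, with 0.243 to 0.551 FPKM, and *Tex12*, listed at 0, overlap *Il18* and may share reads with it.

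Of the genes for membrane lysis, *Gsdmd* encodes gasdermin D, the pore-forming protein of pyroptosis. Its mean FPKM over all libraries was the highest of the 10 genes, but in N the mean of *Zbp1* was higher (12.5 against 6.74 FPKM). *Gsdmd* had 5.84 and 4.34 FPKM in C, 7.65 and 5.83 in N and 5.09 and 4.26 in NP. N replicate 2 lay just under C replicate 1, so that the N and C groups overlapped, whereas both NP libraries were below both N libraries. The differences of 0.35 and -0.44 (SE 0.19) did not pass the threshold (limma adjusted *P* = 0.457 and 0.664) and moved with single libraries, to 0.17 without C replicate 2, 0.53 without C replicate 1, and 0.18 and -0.27 without N replicate 1. *Mlkl* encodes the pseudokinase that permeabilises the membrane in necroptosis. It had 2.08 and 1.45 FPKM in C, 2.73 and 4.97 in N and 1.70 and 1.41 in NP. The N libraries were the highest but differed from each other more than the C and NP libraries did. *Mlkl* differed by 0.78 (SE 0.25, limma adjusted *P* = 0.238) for N versus C and by -0.89 (SE 0.25, limma adjusted *P* = 0.326) for NP versus N, or by 0.44 and -0.55 without N replicate 2.

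**Figure D3:**
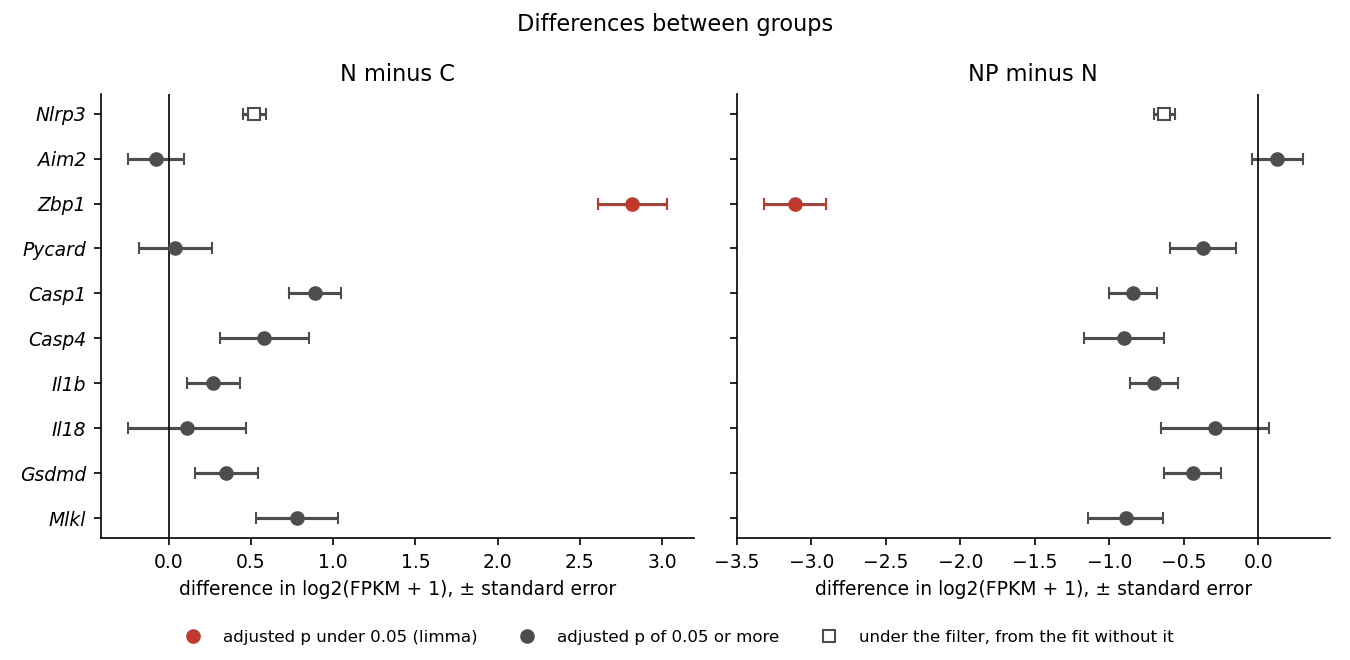
Differences in log2(FPKM + 1) with their standard errors (horizontal axes) for N versus C and for NP versus N, from 2 libraries per group. *Zbp1*, at 2.82 and -3.11, has an adjusted *P* value under 0.05 in both, and the open squares give *Nlrp3* from the fit without the filter.

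For NP versus C, limma called 0 of the 9 genes, and 1 gene, *Il1b*, had an unadjusted *P* value under 0.05 (0.0358), as did 1040 of the 12923 genes tested. Of all genes tested, 0.0387% were called, 5 in number, but 101 were called without C replicate 1, 12 without C replicate 2 and 14 without NP replicate 1. The median difference of the 9 genes was -0.18, against -0.01 over all genes tested. Both NP libraries lay below both C libraries for *Pycard*, *Il1b* and *Zbp1*, which is 3 of the 9 genes, against 23.0% of all genes tested, and also for *Nlrp3*.

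Another 71 genes of the same pathways were examined, of which 50 passed the filter. Limma called 9 of the 50 higher in N than in C, and also 9 of the 50 lower in NP than in N, against 1.48% and 1.39% of all genes tested; they include *Gbp2*, *Gbp3*, *Gbp5*, *Gm12250*, *Il18bp*, *Casp12*, *Irf1* and *Irf8*, called in both comparisons, which share the N libraries. The median differences over the 50 genes were 0.32 and -0.30 (-0.03 and 0.03 over all genes tested). Without C replicate 1, C replicate 2 or N replicate 2 the former count fell to 5, 4 and 5. The latter fell to 5 without any of these 3 libraries, without NP replicate 1 or without NP replicate 2, and also when the N and NP groups were fitted alone. *Gbp2*, *Gbp3* and *Gbp5* were called in both comparisons under all 16 alternative settings. With a replicate block for the N and NP groups only, 15 of the 50 genes were called higher and 1 lower for N versus C. The same block left 9 called lower for NP versus N.

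The called sensors and cofactors were interferon-inducible GTPases, which open pathogen membranes and promote the caspase-11 and AIM2 inflammasomes. *Gm12250*, also named *Irgb10*, had 0.576 and 0.773 FPKM in C, 32.6 and 73.7 in N and 0.387 and 0.705 in NP, and differed by 4.91 and -5.03 (SE 0.37, limma adjusted *P* = 0.00348 and 0.00309). Without C replicate 2 its difference for N versus C had an adjusted *P* value of 0.0519. *Gbp3* differed by 3.14 and -3.30, *Gbp2* by 2.66 and -2.49 and *Gbp5* by 2.33 and -2.39, although reads can be split between these similar genes and their single values are uncertain. Of the other inflammasome sensors, *Nlrp1b*, *Nlrc4* and *Naip5* had at most 0.630 FPKM in any library and lay under the filter, whereas *Naip2* had 0.606 to 1.33 FPKM and *Nlrp10* 8.75 to 12.1 FPKM. Of the cofactors of NLRP3, *Nek7* had 38.7 to 48.0 FPKM and *P2rx7*, the receptor for extracellular ATP, 1.81 to 2.85 FPKM, with differences of -0.12 and 0.34 for N versus C that did not pass (limma adjusted *P* = 0.755 and 0.340). *Txnip*, which binds NLRP3, had 619 and 587 FPKM in C, 468 and 170 in N and 558 and 157 in NP. Replicate 2 was far lower than replicate 1 in both the N and NP groups, and all 4 of these libraries were below both C libraries (difference -1.09 for N versus C, SE 0.69, limma adjusted *P* = 0.518).

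Of the transcription factors that prime these genes, *Irf1* had a mean of 13.8 ± 0.136 FPKM in C, 42.8 ± 10.3 in N and 13.9 ± 2.09 in NP (SD, n = 2; differences 1.55 and -1.54, limma adjusted *P* = 0.0219 and 0.0235). *Irf8* differed by 1.21 and -1.29 (limma adjusted *P* = 0.0141 and 0.0118). The calls of *Irf1* and *Irf8* for N versus C were lost without C replicate 1, C replicate 2 or N replicate 2, with adjusted *P* values of up to 0.197 and 0.169. Their calls for NP versus N were lost without any of those libraries or either NP library, with adjusted *P* values of up to 0.158 and 0.0898, and also when these groups were fitted alone (0.100 and 0.0771). Without the filter, *Irf1* had an adjusted *P* value of 0.0532 for NP versus N.

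Of the cytokine genes and their receptors, *Il18bp*, which encodes the protein that neutralises IL-18, had 4.95 and 5.90 FPKM in C, 16.2 and 20.8 in N and 5.38 and 6.67 in NP. It was called higher in the N group by 1.60 and lower in the NP group by a difference of -1.47 (SE 0.17, limma adjusted *P* = 0.0133 and 0.0199), calls that were lost without the same libraries as those of *Irf1* (adjusted *P* values of up to 0.110 and 0.132), and for NP versus N also without the filter (0.0513) or with these groups fitted alone (0.0816). *Il1a*, *Il1rn* and *Il18r1* lay under the filter, and *Il18r1*, a chain of the IL-18 receptor, had 0.0765 and 0.0348 FPKM in C, 1.26 and 0.456 in N and 0.550 and 0.237 in NP. *Il1r1*, the IL-1 receptor, had 3.90 to 5.73 FPKM (limma adjusted *P* = 0.401 and 0.845).

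Among caspases and pore proteins, *Casp12*, a relative of *Casp1*, had 2.87 and 3.06 FPKM in C, 6.32 and 8.54 in N and 2.52 and 2.88 in NP. Its differences of 1.08 and -1.18 (SE 0.16, limma adjusted *P* = 0.0409 and 0.0336) were just past the threshold. The first was called under 7 and the second under 9 of the 16 alternative settings, and without C replicate 2, for example, the adjusted *P* values were 0.274 and 0.136. *Ninj1*, which ruptures the membrane of dying cells, had 43.8 to 62.6 FPKM and differed by less than its replicate error, and *Gsdme*, listed as *Dfna5*, had at most 0.535 FPKM. The kinases upstream of MLKL did not pass the threshold. The mean of *Ripk3* was 1.28 ± 0.132 FPKM in C, 1.70 ± 0.276 in N and 1.16 ± 0.0560 in NP (SD, n = 2; differences 0.24 and -0.32, limma adjusted *P* = 0.493 and 0.709). *Ripk1* differed by 0.23 and -0.20 (limma adjusted *P* = 0.523 and 0.911), and *Casp8*, whose protease restrains necroptosis, by 0.24 and -0.44 (limma adjusted *P* = 0.460 and 0.349). Of the 17 genes of necroptosis and its regulators tested, limma called 0 for N versus C and for NP versus N, while 5 in each had an unadjusted *P* value under 0.05 (1938 and 1039 of all 12923 genes tested), and the medians were 0.24 and -0.20.

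**Figure D4:**
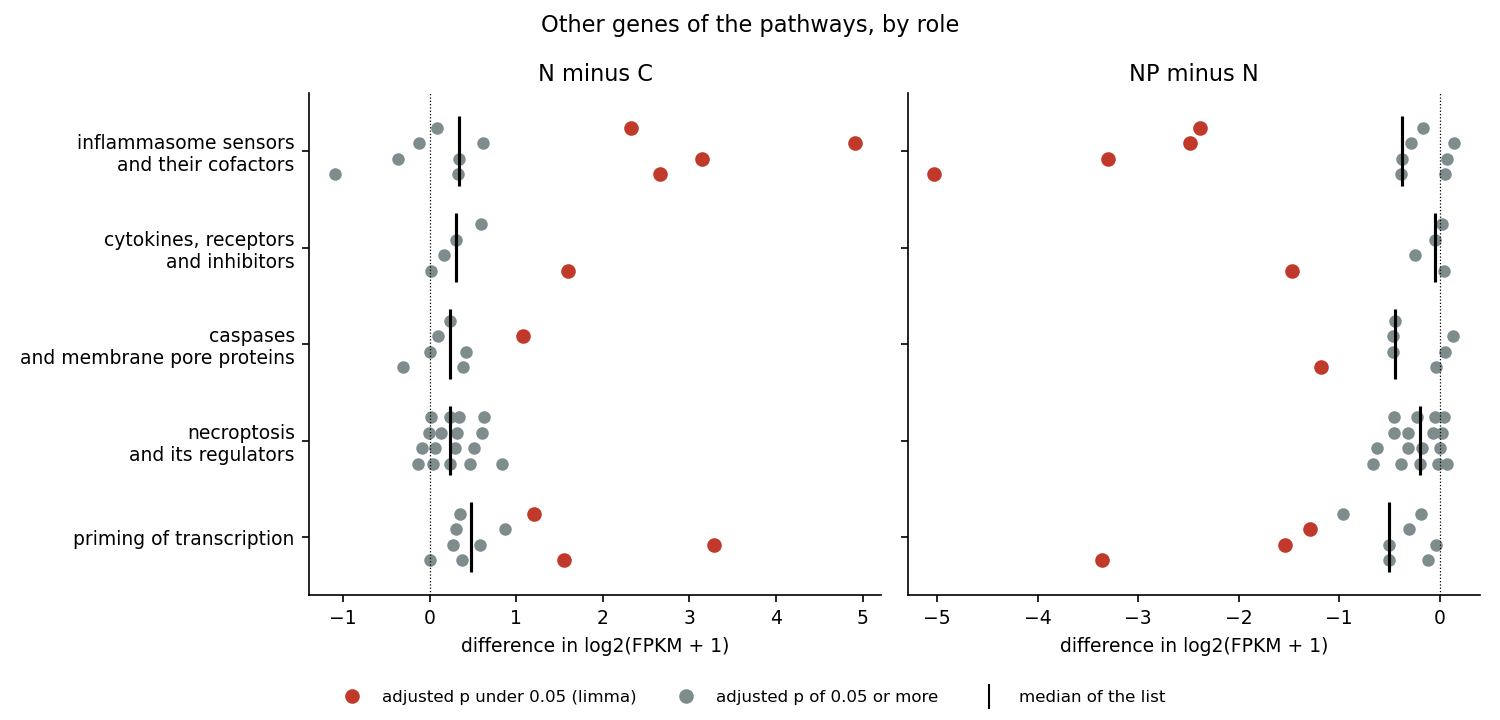
Differences in log2(FPKM + 1) (horizontal axes) of the 50 other pathway genes tested, by role (vertical axis), for N versus C and for NP versus N. Each point is a gene, red where the adjusted *P* value was under 0.05, and vertical bars are list medians; the 9 red genes of each panel lie to the right of 0 in the first panel and to the left of it in the second.

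As sums, the immune cell markers of this paragraph were highest in the N libraries, as were the 10 genes, but not every marker followed. In bulk tissue, fewer cells of a type and less RNA per cell cannot be told apart. The 10 macrophage markers, of which *Lyz2* was the most abundant, summed to 352 and 319 FPKM in C, 637 and 544 in N and 265 and 232 in NP. Limma called 4 of the 10 higher in the N group and 6 of the 10 lower in the NP group (1.48% and 1.39% of all genes tested), *Adgre1* in both (differences 0.96 and -1.25), while *Csf1r* was called in neither (0.70 and -0.75). For *Cd163* the N and C libraries overlapped (difference 0.10, limma adjusted *P* = 0.914). For *Mertk* the NP and N libraries overlapped (difference -0.13, limma adjusted *P* = 0.966). The monocyte markers summed to 1.93 and 1.76, to 10.6 and 14.6 and to 0.948 and 1.95 FPKM in the C, N and NP libraries. *Plac8* led them in N and NP, but *Ccr2* did so in C (mean 1.22 against 0.464 FPKM). *Ccr2* had 1.29 and 1.15 FPKM in C, 3.51 and 2.16 in N and 0.357 and 0.312 in NP, and *Ly6c2* was at 0 in NP replicate 1. Neutrophil markers summed to 7.63 and 3.32, to 12.6 and 9.98 and to 2.09 and 3.14 FPKM in the same order. *S100a9* led them in N and NP and *S100a8* in C (mean 2.39 against 2.23 FPKM), and *S100a8* was at 0 in NP replicate 1. The NK cell markers summed to 8.16 and 10.8 FPKM in N and to at most 0.733 FPKM elsewhere. T cell markers summed to 5.23 and 4.38 against at most 1.06 FPKM, and B cell markers to 5.46 and 5.13 against at most 1.28 FPKM. By mean over all libraries *Nkg7* led the NK cell list, *Lck* the T cell list and *Cd79a* the B cell list. Within groups, *Gzma* had a higher mean than *Nkg7*, and *Cd4* than *Lck*, in C and NP, and *Cd79b* than *Cd79a* in C. Limma called 1 of the 4 monocyte and 2 of the 7 NK cell markers higher in N and the same numbers lower in NP, as well as 1 of the 5 neutrophil markers. Only 2, 3 and 3 genes of these lists were tested, and the NK cell genes tested passed the filter only by their level in N. The 8 T cell markers lay under the filter. *Ncr1* was at 0 in NP replicate 1 and *Cd3e* in NP replicate 2.

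The 13 genes of an interferon response list summed to 53.8 and 41.9 FPKM in C, 198 and 258 in N and 49.8 and 44.6 in NP. *Irf7* had the highest mean of the list over all libraries. Within groups the highest means were those of *Rsad2* in C and NP (9.17 and 8.49 FPKM) and of *Cd274* in N (49.3 FPKM). Of 12 tested, 7 were called higher in the N group and 8 lower in the NP group, with medians of 1.73 and -1.74, against 1.48% and 1.39% of all genes tested and medians of -0.03 and 0.03. *Ifng* was listed at 0 in all libraries but N replicate 2, where it had 0.114 FPKM. The summed FPKM of the 10 inflammasome, pyroptosis and necroptosis genes was 18.8 and 15.1 in C, 32.8 and 41.2 in N and 13.3 and 14.6 in NP. The part of the immune cell markers and of the interferon response in the differences of the 10 genes was not tested. In the lists of dendritic cells, endothelial cells and fibroblasts, limma called 0 genes for N versus C, with medians between 0.07 and 0.32. In each list 1 gene had an unadjusted *P* value under 0.05, as did 1938 of all 12923 genes tested. That of the dendritic cell list, *Itgax*, passed the filter only by its level in N. By mean over all libraries these lists were led by *Zbtb46*, *Pecam1* and *Dcn*, although *Cdh5* had a higher mean than *Pecam1* in C and NP. Of the dendritic cell markers, some were highest in N. *Xcr1* had 0.0356 and 0.119 FPKM in C, 0.505 and 0.727 in N and 0.142 and 0.276 in NP, and *Itgax* 1.63 and 0.959 FPKM in N and at most 0.316 elsewhere. *Flt3* had 0.328 and 0.332 FPKM in N and at most 0.136 elsewhere, whereas the groups overlapped for *Zbtb46*, *Clec9a* and *Cd209a*. *Pecam1* had 71.4 to 94.6 FPKM and *Pdgfra* 10.6 to 13.4 FPKM. The 4 adipocyte genes tested had a median of 2.80 for N versus C and -1.32 for NP versus N, with 0 called by limma. In this order 4 and 0 of them had an unadjusted *P* value under 0.05, against 1938 and 1039 of all 12923 genes tested. Of the adipocyte genes, *Cfd* was the most abundant, and *Adipoq* had 0.593 and 1.12 FPKM in C, 16.0 and 14.6 in N and 1.66 and 11.9 in NP.

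**Figure D5:**
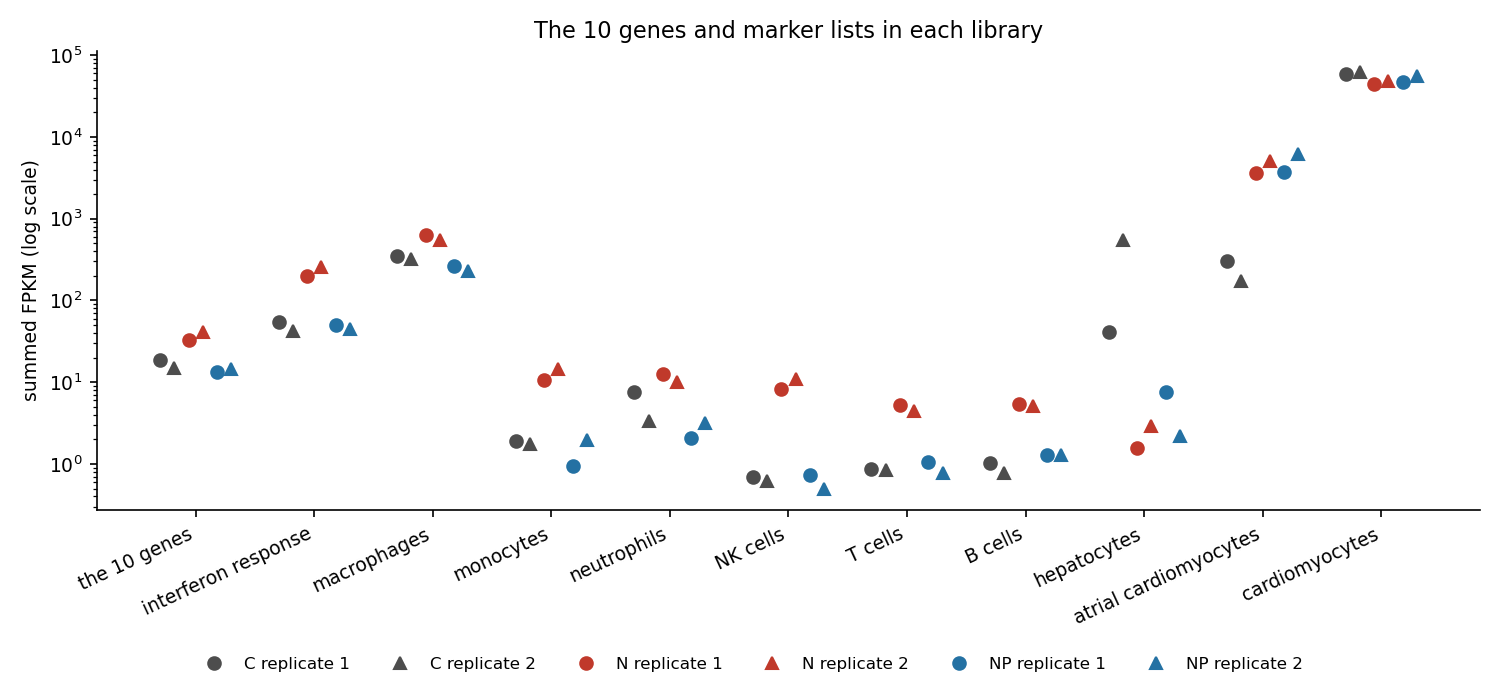
Summed FPKM (vertical axis, log scale) of the 10 genes and of marker lists in each library, with colours for groups and circles and triangles for replicates 1 and 2. The N libraries are the highest for the 10 genes, the interferon response and the immune cell lists, whereas hepatocyte markers are highest in C replicate 2, at 557 FPKM, and atrial markers are low in the C libraries.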

How the data were processed

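Heart RNA of 6 libraries, 2 per group, was grouped by the diet and dose in the labels. The authors sequenced stranded single-end libraries, mapped the reads to mm10 with TopHat2 2.0.13, Bowtie2 2.2.3 and SAMtools 0.1.19 and computed FPKM with Cufflinks 2.2.1, which are the deposited values. Whether Cufflinks used the strand is not given in the sources used here.

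Log2(FPKM + 1) of the 12923 genes with a mean of at least 0.5 FPKM was fitted without further scaling with limma 3.58.1 (R 4.3.3; trended moderation, 3 groups in one model, 3 residual degrees of freedom). Adjustment was by Benjamini-Hochberg over all genes of a comparison, with a threshold of 0.05. Python 3.11.15, numpy 2.4.6, pandas 2.3.3 and matplotlib 3.10.9 were used otherwise. Depth came from the steps of low FPKM of 3915 genes with 1 transcript in GENCODE M21, with 200 bases taken off the length, and 75.8% to 79.6% of these values lay within 0.1 read of a whole number. Estimated reads have no counting interval here.

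The 10 genes, the pathway list and the marker lists were chosen with earlier results of these data known. Pathway genes are named where called or by a short list, and marker genes where they define a cell type or lead their list over all libraries or in a group. *Ifng*, *Sln*, *Naip2*, *Nlrp10*, *Cd163*, *Mertk*, *Itgax*, *Flt3*, *Clec9a*, *Cd209a*, *Il1bos*, *Bco2*, *Tex12* and *Cadm3*, the motifs and the promoters printed were chosen after the values were seen. *Ly6g* was not analysed here, and some genes that these rules cover, and 1 motif that was searched, are not given. Of 16 alternative settings, those that change a result are given in the closing section.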

Additional observations from a re-analysis of the deposited data

How the results depend on the processing

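The cause of the changes given here was not tested. For N versus C, 200 genes were called, but 312 after scaling to the same total. For NP versus N, 179 were called, but 78 when only these groups were fitted. For NP versus C, 5 were called, 12 with a pseudocount of 0.1, 0 without the filter (where more genes were tested) and 10 after scaling to the same total. Of the 9 genes tested, 1 was called for N versus C and 2 after scaling to the same total, with *Casp1* at 1.01. For NP versus N 1 was called, and 2 without the filter, which adds *Nlrp3*. Of the other pathway genes, 9 were called for NP versus N, and 5 when only these groups were fitted.

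Pairing by replicate number was also examined. Across genes, same-numbered libraries deviated with correlations of 0.0471 (C and N), 0.124 (C and NP) and 0.458 (N and NP). By rank these were 0.230, 0.263 and 0.555, so that the check depends on the coefficient. The labels do not say what the numbers share, and the main fit was set without a block before the check. The N and NP libraries of the same number do deviate together, and the deposited file names of replicates 1 and 2 are of different kinds in these 2 groups, which may mark a batch that the labels do not give. With a replicate block, 328 genes (274 higher, 54 lower) were called for N versus C and 20 for NP versus C, and 2 of the 9 genes for N versus C, *Zbp1* and *Casp1* (limma adjusted *P* = 0.0461). With a replicate block for the N and NP groups only, the calls were 1100 (596 higher, 504 lower), 301 and 55 in the comparisons N with C, NP with N and NP with C, those of the 9 genes were 2 and 2 in the first pair of comparisons, again *Zbp1* and *Casp1* (limma adjusted *P* = 0.0175 and 0.0267), and those of the other pathway genes were 16 (N with C) and 1 (NP with C).

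When each library was left out in turn, which leaves a group with a lone library that is assumed to vary like the others, the calls were 49 to 183 (N with C), 67 to 108 (NP with N) and 5 to 101 (NP with C). For the 9 genes they were 0 to 1 for N versus C, and for the other pathway genes 4 to 9 and 5 to 9 in N with C and NP with N. The count of genes with the N libraries highest, tried after seeing the data, was 6 to 7, and it could not have fallen when a library was left out.

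Some differences of uncalled genes changed sign, as shown by their range when each library was left out. For N versus C these were *Pycard* (-0.22 to 0.30, the lowest without N replicate 2, and -0.01 with quantile normalization), *Il18* (-0.11 to 0.32, the lowest without N replicate 2) and *Aim2* (-0.17 to 0.02, the highest without N replicate 1). For NP versus N these were *Il18* (-0.82 to 0.23, the highest without NP replicate 1) and *Aim2* (-0.01 to 0.27, the lowest without NP replicate 2). For NP versus C these were *Casp1* (-0.03 to 0.14) and *Aim2* (-0.09 to 0.20), the lowest without NP replicate 2, *Il18* (-0.71 to 0.34, the highest without NP replicate 1), *Casp4* (-0.73 to 0.08) and *Mlkl* (-0.27 to 0.06), the highest without C replicate 1, and *Gsdmd* (-0.27 to 0.08, above 0 without C replicate 1 and, at 0.01, without NP replicate 2, and 0.03 after scaling to the same total). Some settings moved a difference by over 1.5 times without a change of sign. For NP versus N, *Pycard* was -0.18 without NP replicate 1 and -0.56 without NP replicate 2, and with a pseudocount of 0.1 *Il18* was -1.30 and *Aim2* 0.29. For NP versus C, *Pycard* was -0.14 and *Zbp1* -0.10 without NP replicate 1, and with a pseudocount of 0.1 *Il18* was -1.10 and *Zbp1* -0.67. With a filter at a mean FPKM of 1, *Aim2*, *Il1b* and *Il18* were not tested. The calls of the marker lists were not recomputed. The other settings kept the sign of all differences of the 9 genes. At the depth of these libraries, *Il1b*, *Il18* and *Nlrp3* in the NP libraries rest on too few reads for their fold changes to be read closely.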
